A study of Drosophila melanogaster with 30 samples.

Results

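Of the 17807 genes counted in nuclear RNA of fly outer photoreceptors, 9 are partners of the RNA polymerase II pausing and elongation machinery: spt4, Nelf-A, Nelf-B, Nelf-E, Cdk9, CycT, CycK, Ctr9 and lilli. They were chosen by name as members or partners of the DSIF, NELF, P-TEFb, Cdk12, PAF1 and super elongation complexes, with the genes targeted in the series left out. All 9 had a row in every library and passed the filter on low counts. They were followed over 10 groups of 3 libraries, each expressing a short hairpin RNA (shRNA). The hairpins were aimed at Cdk12, cnc, dom, Spt5, Spt6, Taf1, TH1, Top1 and Trl, and the control hairpin at LexA, which is a bacterial gene with no fly counterpart.

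All flies, LexA included, were males of day 30, kept at 25 C under 12 h of light and 12 h of dark, and carried the constructs Rh1-GFPKASH and Rh1-Gal4. The Rh1 promoter is active in outer photoreceptors, so each genotype (for example Rh1-GFPKASH, Rh1-Gal4>sh-dom) expresses its hairpin there and not in the whole fly, and GFPKASH marks the envelope of their nuclei with GFP, which lets an antibody enrich them. Each library was made from 10 ng of RNA after depletion of ribosomal RNA. The labels speak of biological replicates and give neither the number of flies in each nor whether nuclei were pooled from several. The genotype labels of 6 groups count upward over the replicates and go against the titles, so the groups were taken from the titles.

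After initiation, RNA polymerase II pauses a short way into many genes, held by DSIF (Spt4 and Spt5) and NELF. The kinase P-TEFb (Cdk9 with cyclin T) phosphorylates these factors and the polymerase and so releases it, and the super elongation complex and the PAF1 complex assist it afterwards. Cdk12 with cyclin K phosphorylates the polymerase tail during elongation, which matters most for long genes, a class to which many neuronal genes belong.

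Gene counts per library lay between 4064250 and 18024440. ninaE, which encodes the rhodopsin Rh1, stood between 7818 and 31477 CPM (gene counts scaled to a common library total) and ranked between 1 and 10 among all genes in every library. Of the marker genes for inner photoreceptors, other neurons, glia, pigment and lens cells, fat body and muscle, none was at 0 in all libraries. Reads outside annotated features came to between 55.4 and 172 per 100 gene counts, the highest in Trl replicate 2. The files of Spt5 and Cdk12 differed in layout from the rest and held 59.2 to 94.5 reads aligned to several places per 100 gene counts, against 12.8 to 33.0 in the other 8 groups. In edgeR's quasi-likelihood test no targeted gene was called lower in its own group (0 of 9). At an unadjusted p under 0.05 the count was also 0 of 9. DESeq2 called Spt5 lower and Trl higher in their own groups. Log2 ratios over LexA in the own group were above 0 for Trl (0.67), Cdk12 (0.16), Spt6 (0.12) and cnc (0.05). That of Trl had an unadjusted p under 0.05 in edgeR. Those of the other targets were below 0, from -0.41 for Taf1 to -0.16 for dom. Save for Spt5 in DESeq2, this check did not bear the labels out. No pair of libraries held identical values.

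The 9 genes fell into levels that lay far apart. Per length of exon, lilli was the most abundant in LexA, with a mean of 56.3 CPM per kb, followed by Nelf-A with 43.3 and CycT with 40.5. Exons cover 15.5% of the lilli gene span, against 78.3% to 100% in the other members. The counted feature is not given, so the place of lilli holds only per length of exon. Ctr9 (13.4), spt4 (11.2), Cdk9 (10.0) and CycK (7.19) formed a middle range on the same scale. Nelf-E (2.76) and Nelf-B (2.21) were the lowest. Subunits of 1 complex thus differed widely in nuclear RNA: Nelf-A stood between 6.88 and 29.9 times Nelf-B per kb over the 30 libraries, and the cyclin CycT between 3.18 and 6.42 times its kinase Cdk9. Low counts limit the precision of the weakest members. Nelf-E had a median of 31 reads per library, spt4 of 44 and Nelf-B of 45, while lilli had 3972.

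**Figure D1:**
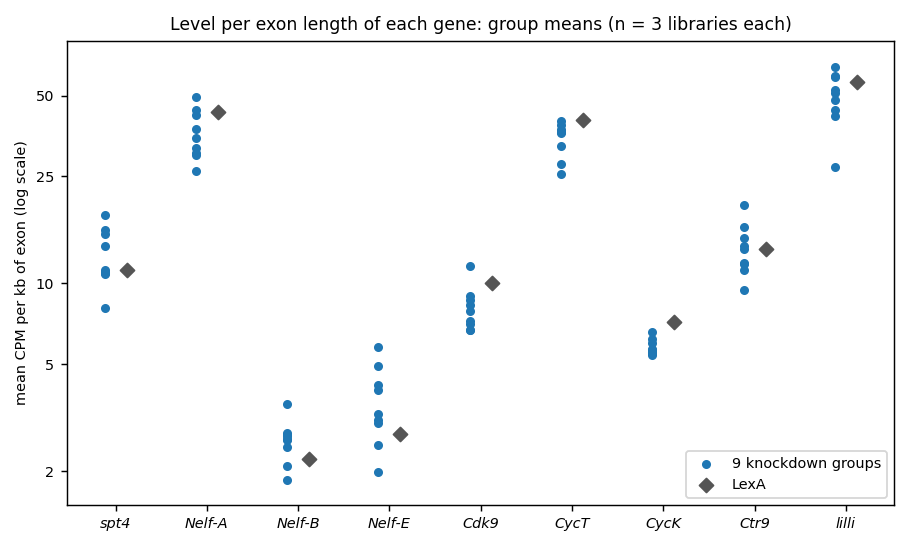
Mean level of each gene in CPM per kb of exon (log axis), with a circle for each of the 9 knockdown groups and a diamond for LexA, each the mean of 3 libraries. lilli, Nelf-A and CycT lie at 25.6 or more in every group. Nelf-B and Nelf-E are the lowest in every group but cnc, where Nelf-E (5.82) lies just above CycK (5.66).

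Each gene was compared between every knockdown and LexA, which gives 81 tests, with p-values adjusted over all 14888 tested genes of a comparison and a call at an adjusted p under 0.05. Sizes are given as the log2 ratio of a knockdown over LexA, with its standard error (SE). Of the 81, 4 were called, against 3.42% of all genes over the same 9 comparisons. Of these, 1 was higher (1.84% of all genes) and 3 were lower (1.57%). DESeq2 called 9 of the 81, against 7.97% of the genes to which it gave an adjusted p. lilli and CycT were lower in dom, Nelf-A was lower in Trl, and Ctr9 was higher in Spt5. By comparison the members called were 1 of 9 in Spt5 (16.5% of all genes called, 11.0% higher and 5.42% lower), 2 of 9 in dom (10.4%, with 4.37% higher and 6.0% lower) and 1 of 9 in Trl (2.55%, with 0.631% higher and 1.91% lower). None of the 9 was called in Spt6 (0.107% of all genes), TH1 (0.202%), Cdk12 (0.195%), Taf1 (0.148%), Top1 (0.430%) or cnc (0.289%). At an unadjusted p under 0.05 these 6 groups had 0, 1, 1, 2, 3 and 1 members in that order, and DESeq2 called only 1 member in them, Nelf-A in Top1. All 9 comparisons share the LexA libraries.

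Groups that did not overlap were more frequent than calls. All 3 knockdown libraries lay below every LexA library for 2 of the 9 genes in Spt5 (12.3% of all genes), 3 in dom (13.3%), 2 in TH1 (7.33%) and 2 in Cdk12 (9.23%). The same held for 4 in Top1 (8.88%), 5 in Trl (17.3%) and 1 in cnc (7.93%), and for none in Spt6 (6.20%) or Taf1 (7.28%). They lay above every LexA library for 1 gene in Spt6 (7.02%), 2 in Taf1 (7.13%), 1 in Top1 (8.15%) and 1 in cnc (6.17%), and for none in Spt5 (10.0%), dom (15.6%), TH1 (7.23%), Cdk12 (9.38%) or Trl (20.0%). Over the 9 comparisons pooled, 9.98% of genes lay below and 10.1% above.

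**Figure D2:**
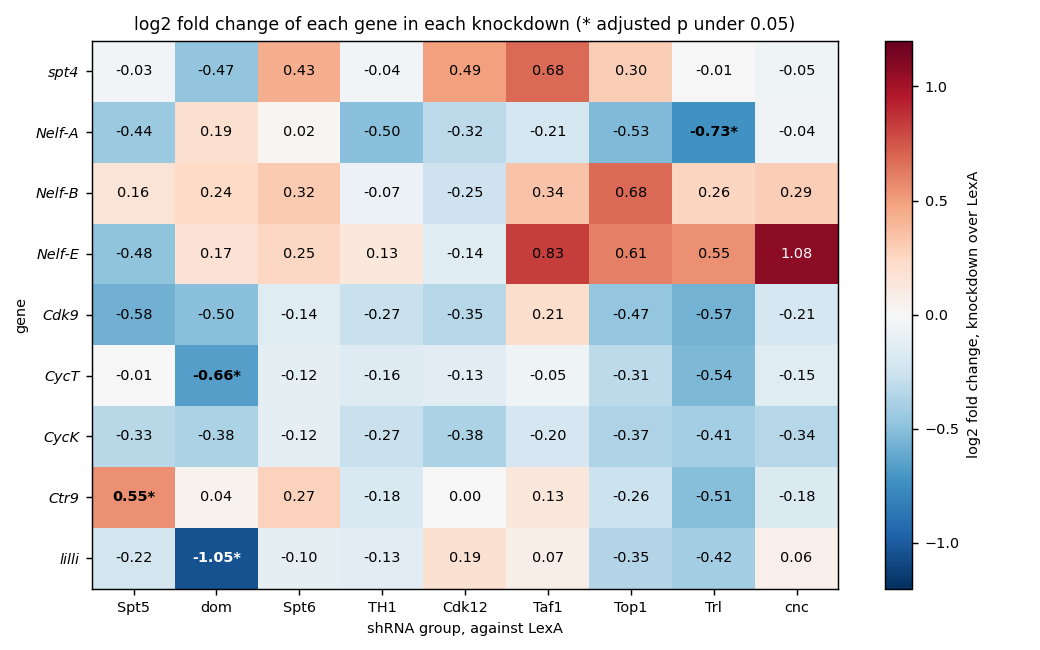
log2 fold change of each gene (rows) in each shRNA group over LexA (columns), with a star where the adjusted p of edgeR's quasi-likelihood test is under 0.05. The starred values are 0.55 for Ctr9 in Spt5, -0.66 for CycT and -1.05 for lilli in dom, and -0.73 for Nelf-A in Trl.

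A test of any difference among the 10 groups asks whether a gene varied over the series without leaning on LexA. It called 6 of the 9 genes, against 29.1% of all genes: lilli (adjusted p 0.0035), Ctr9 (0.0059), Nelf-A (0.0065), spt4 (0.038), CycT (0.041) and Nelf-E (0.045). Cdk9 (0.063), CycK (0.41) and Nelf-B (0.42) were not called. Leaving out any of the 30 libraries in turn left between 3 and 5 of the 9 called, and the 8 groups that share a file layout gave 3. The 9 knockdown groups without LexA gave 6, and DESeq2 gave 7, with Cdk9 among them (adjusted p 0.0072).

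**Figure D3:**
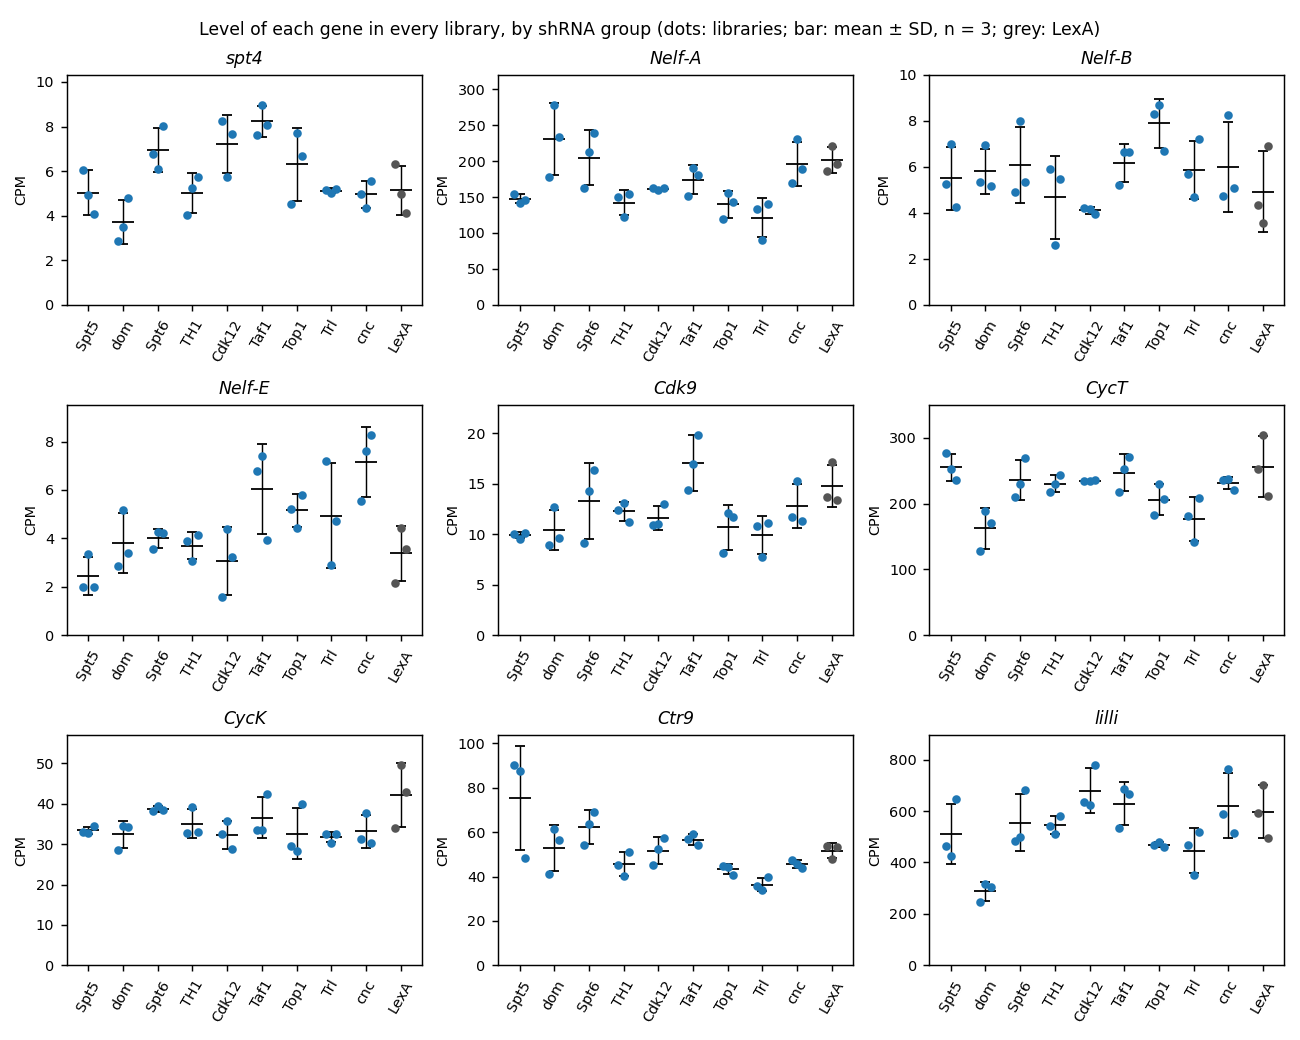
CPM of each gene in every library, with knockdown groups on the left and LexA on the right of each panel; dots are libraries and bars the mean ± SD (n = 3). lilli in dom lies below every other library of the series, and Ctr9 in Spt5 has 2 libraries above all others and 1 inside the LexA range.

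lilli, on chromosome arm 2L from 2885929 to 2954406 on the plus strand, encodes the AF4-like scaffold that ties P-TEFb to the super elongation complex. Its level was 247, 316 and 303 CPM in dom, against 592, 703 and 497 CPM in LexA. The 3 dom libraries were below every library of the other 9 groups, the nearest of which was Trl replicate 2 at 352 CPM. lilli fell in dom to 48.4% of its LexA level (log2 ratio -1.05, SE 0.21, adjusted p 0.0013). It was called lower in dom under every alternative run, and leaving out any of the 6 libraries kept the log2 ratio between -1.16 and -0.91. Against the mean of the other 8 knockdowns, a comparison with 13.0% of all genes called in dom, it was also lower (-0.93, SE 0.17, adjusted p 1.8e-04). Of the 8 remaining knockdowns, Cdk12 had the highest lilli level, with 635, 624 and 779 CPM, and Top1 the narrowest, with 469, 478 and 460 CPM. Top1 lay below every LexA library (log2 ratio -0.35, SE 0.20, adjusted p 0.69), which did not pass the test. Along the order of the 10 group means, only the step between Trl and dom exceeded the larger SD of its 2 groups.

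Of 53 marker genes of cell types, 5 were called in dom, against 10.4% of all genes (4.37% higher and 6.0% lower). The summed level of 10 outer photoreceptor genes was 54372 to 69768 CPM in dom and 80525 to 87435 CPM in LexA, with 1 of the 10 called lower. The sum over 8 markers of other neurons was 407 to 632 CPM in dom and 323 to 438 CPM in LexA, with 2 of 8 called higher. That of 8 glial markers was 323 to 610 CPM in dom and 310 to 549 CPM in LexA, with 1 of 8 called higher, and that of 7 cone, pigment and corneal markers 236 to 372 CPM in dom and 203 to 241 CPM in LexA, with 1 of 7 called lower. No marker of inner photoreceptors (786 to 1418 CPM in dom and 601 to 842 CPM in LexA), fat body and hemocytes (1952 to 3193 CPM in dom and 2229 to 3063 CPM in LexA) or muscle (1087 to 1632 CPM in dom and 763 to 1290 CPM in LexA) was called. The summed levels in dom overlapped those in LexA for other neurons, glia, cone, pigment and corneal cells, inner photoreceptors, fat body and muscle. None of these markers was at 0 in all libraries, and their part in the members' results was not tested. In such bulk samples, fewer cells of a type and less RNA per cell cannot be told apart.

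CycT and Cdk9 form P-TEFb, the kinase that releases the paused polymerase. CycT, the cyclin subunit (3L, 17551004 to 17557788, minus strand), stood at 128, 188 and 171 CPM in dom, against 253, 305 and 212 CPM in LexA. All 3 dom libraries lay below the LexA libraries. CycT fell to 63.3% of its LexA level (log2 ratio -0.66, SE 0.18, adjusted p 0.015). Leaving out a library moved the log2 ratio between -0.77 and -0.51. The call was lost without dom replicate 1 (-0.55, adjusted p 0.073), dom replicate 3 (-0.59, adjusted p 0.079) or LexA replicate 2 (-0.51, adjusted p 0.15). The Trl libraries, at 181, 141 and 208 CPM, were also below every LexA library, with a log2 ratio of -0.54 (SE 0.18, adjusted p 0.077). DESeq2 called CycT lower in Trl with -0.37 (adjusted p 0.049), and 1 of the 6 fits that leave out a library did so in edgeR, over a range of -0.67 to -0.34. The other 7 knockdown groups had CycT means of 206 to 255 CPM, and the Cdk12 libraries read 235, 235 and 236 CPM.

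Cdk9, the kinase (2R, 22636063 to 22637727, minus strand), had no called difference from LexA. It stood at 10.0, 9.57 and 10.1 CPM in Spt5, against 13.7, 17.2 and 13.4 CPM in LexA, so the groups did not overlap (log2 ratio -0.58, SE 0.23, adjusted p 0.083). It lay below every LexA library in 6 of the 9 knockdowns, namely Spt5, dom, TH1, Cdk12, Top1 and Trl. Over the 9 comparisons pooled this held for 9.98% of all genes, and all 9 share the same LexA libraries. In TH1 and Cdk12 the highest library (13.1 and 13.0 CPM) was close to the lowest of LexA (13.4 CPM). Alternatives to the test called Cdk9 lower in Spt5, with log2 ratios of -0.62 with relative log expression (RLE) scaling, -0.63 with no filter, -0.65 with reads outside features as a covariate (the background covariate) and -0.63 in DESeq2. In dom it was called lower in the 6 libraries alone (-0.66, adjusted p 0.047). Taf1 had the highest level, with 14.4, 16.9 and 19.9 CPM. Per kb of exon, CycT exceeded Cdk9 by 6.42, 6.17 and 5.43 times in the Spt5 libraries and by 4.29, 4.13 and 3.68 times in LexA, while the median over all 30 libraries was 4.18.

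CycK, the cyclin partner of Cdk12 (2L, 22124285 to 22130142, minus strand), was the steadiest of the 9, with group means between 31.8 and 42.1 CPM. All 9 fold changes were below 0, from -0.41 in Trl to -0.12 in Spt6, and none was called by edgeR (4 at an unadjusted p under 0.05; DESeq2 called 1, in Spt5 with -0.38). With the partner kinase targeted it read 32.5, 35.7 and 28.8 CPM in Cdk12, against 33.9, 49.6 and 42.8 CPM in LexA. The groups overlapped, and the log2 ratio of -0.38 (SE 0.17, adjusted p 0.67) did not pass. LexA replicate 2 at 49.6 CPM was the highest of all 30 libraries, and the LexA mean is the highest of the 10 means. Of the 5858 exon bases of CycK, 1833 are shared with CG3651 on the other strand. The strand setting of the counting is not given in the sources used here, so the assignment of reads in the shared bases is unknown.

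NELF holds the paused polymerase. Of the 3 subunits followed here, only Nelf-A had a called difference from LexA. Nelf-A (3R, 21223704 to 21229512, plus strand) stood at 133, 90.5 and 140 CPM in Trl, against 187, 221 and 196 CPM in LexA. Trl encodes the GAGA factor, a DNA-binding protein found at many paused fly promoters. All 3 Trl libraries were below the LexA libraries, and Nelf-A fell to 60.3% of its LexA level (log2 ratio -0.73, SE 0.19, adjusted p 0.043). The call was not stable: the adjusted p was 0.064 with RLE scaling, 0.073 with no filter, 0.31 with the background covariate (-0.46) and 0.079 in the 6 libraries alone. Of the 6 libraries of the comparison, leaving out any but Trl replicate 3 also lost it, with -0.50 (adjusted p 0.29) without Trl replicate 2, the library with most reads outside features. RLE scaling moves the median of all genes in Trl by 0.17 on the log2 scale, and relative to that median Nelf-A was at -0.94 with TMM and -0.95 with RLE. A change of scaling shifts a gene and the median alike, so these values are close by construction. They do not show that the call holds under RLE. Reads outside features were 101 to 172 per 100 gene counts in Trl and 79.3 to 92.4 in LexA. The summed outer photoreceptor markers were 40894 to 67317 CPM in Trl and 80525 to 87435 CPM in LexA. Of these markers 0 of 10 were called in either direction, against 2.55% of all genes. The part of these reads and markers in this result was not tested.

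Nelf-A also lay below every LexA library in Spt5 (155, 142 and 146 CPM), TH1 (150, 123 and 154 CPM), Cdk12 (162, 160 and 162 CPM) and Top1 (119, 156 and 144 CPM), with log2 ratios of -0.44, -0.50, -0.32 and -0.53, none of them called by edgeR. In Spt5 it was called lower by DESeq2 (-0.49) and with RLE scaling (-0.49), no filter (-0.50) and the background covariate (-0.54). The highest level was in dom, at 178, 279 and 234 CPM, where the range overlapped that of LexA (log2 ratio 0.19, SE 0.19, adjusted p 0.63). Against the other 8 knockdowns Nelf-A was higher in dom (0.54, SE 0.14, adjusted p 0.0075), a call lost only without dom replicate 2 among the 27 knockdown libraries, and lower in Trl (-0.50, SE 0.15, adjusted p 0.019), a comparison in which 31.3% of all genes were called. That call in Trl was lost without Trl replicate 1 (-0.58, adjusted p 0.087) or replicate 2 (-0.29, adjusted p 0.25). Per kb of exon, Nelf-A exceeded lilli by 1.65, 2.01 and 1.76 times in the dom libraries and lay below it in LexA, at 0.721, 0.718 and 0.899 times.

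Nelf-B and Nelf-E, the RNA-binding subunit, had few reads. Nelf-B (X, 7725996 to 7728361, minus strand) had group means between 4.12 CPM in Cdk12 and 7.90 CPM in Top1. Its largest fold change was 0.68 in Top1 (SE 0.33, adjusted p 0.59), with 8.29, 8.71 and 6.70 CPM in Top1 against 4.33, 3.54 and 6.90 CPM in LexA, and the groups overlapped. Nelf-E (3L, 8599442 to 8600879, minus strand) reached 5.52, 7.63 and 8.28 CPM in cnc, against 2.17, 4.43 and 3.55 CPM in LexA. The cnc libraries lay above all LexA libraries, with a log2 ratio of 1.08 (SE 0.39, adjusted p 0.44), which rests on 12 to 25 reads in the LexA libraries and was not called. Neither gene was called in any of the 9 comparisons with LexA by edgeR or DESeq2 (at an unadjusted p under 0.05, Nelf-B in 1 and Nelf-E in 2). Nelf-E shares 176 exon bases with the far more abundant CG43078 on the other strand.

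TH1 encodes the remaining NELF subunit, and in its group none of these 3 was called. Nelf-A was at a log2 ratio of -0.50 (SE 0.19, adjusted p 0.79), Nelf-B at -0.07 (SE 0.34) and Nelf-E at 0.13 (SE 0.41). The signs of Nelf-B and Nelf-E were not stable: without TH1 replicate 2 Nelf-B was at 0.24, and without LexA replicate 1 Nelf-E was at -0.11.

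spt4 (2R, 12633589 to 12634172, plus strand) encodes the small partner of Spt5 in DSIF. In the Spt5 group it read 6.07, 4.94 and 4.06 CPM, against 6.32, 4.96 and 4.14 CPM in LexA. The ranges overlapped almost wholly. The log2 ratio of -0.03 (SE 0.28, adjusted p 0.97) leaves room for a change of some size in either direction. The highest levels were in Taf1, at 7.63, 8.99 and 8.09 CPM, above every LexA library (0.68, SE 0.28, adjusted p 0.74), and the lowest in dom, at 2.84, 3.51 and 4.78 CPM (-0.47, SE 0.28, adjusted p 0.34). Against the other 8 knockdowns spt4 was lower in dom (-0.69, SE 0.21, adjusted p 0.030), a call lost on leaving out any of 9 of the 27 libraries.

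Ctr9, a subunit of the PAF1 complex that travels with elongating polymerase, lies on 3L from 1307224 to 1311805 on the plus strand. It stood at 90.3, 87.5 and 48.6 CPM in Spt5, against 54.0, 47.8 and 53.3 CPM in LexA. Spt5 replicates 1 and 2 were the highest of all 30 libraries, and replicate 3 lay inside the LexA range. Ctr9 rose with a log2 ratio of 0.55 (SE 0.19, adjusted p 0.048), and against the other 8 knockdowns, where 17.4% of all genes were called in Spt5, with 0.63 (SE 0.13, adjusted p 0.0012). That second call was lost without Spt5 replicate 1 (0.48, adjusted p 0.10) or replicate 2 (0.49, adjusted p 0.079). Against LexA the value was 0.79 (adjusted p 8.7e-04) without Spt5 replicate 3, but 0.41 (adjusted p 0.27) without replicate 1 and 0.42 (adjusted p 0.26) without replicate 2. The call was also lost with Cdk12 in place of LexA (0.55, adjusted p 0.079), with no filter (adjusted p 0.058), with the background covariate (adjusted p 0.064), in the 6 libraries alone (adjusted p 0.21) and without any of the 3 LexA libraries.

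The same pair of Spt5 libraries stood apart in markers of other cells. The 8 markers of other neurons summed to 1290 and 1108 CPM in Spt5 replicates 1 and 2 and to 428 CPM in replicate 3, against 323 to 438 CPM in LexA, and 6 of the 8 were called higher. Also called higher were 5 of 6 inner photoreceptor markers, 6 of 8 glial, 5 of 7 cone, pigment and corneal, 5 of 8 fat body and hemocyte and 0 of 6 muscle markers. Of all genes, 11.0% were called higher in Spt5 and 5.42% lower. In the 6 Spt5 and LexA libraries alone, only 2 genes in all were called, 0 higher and 2 lower. None of the higher calls of markers stood there. The 10 outer photoreceptor markers summed to 23902 and 24183 CPM in replicates 1 and 2 and to 64276 CPM in replicate 3, against 80525 to 87435 CPM in LexA, with 8 of 10 called lower. Their part in the Ctr9 result was not tested. Ctr9 shares 146 exon bases with Nt5a on the other strand, which read 20.1, 15.3 and 6.71 CPM in the same Spt5 libraries, against 3.79, 5.14 and 10.8 CPM in LexA (log2 ratio 1.10, SE 0.44, adjusted p 0.089).

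**Figure D4:**
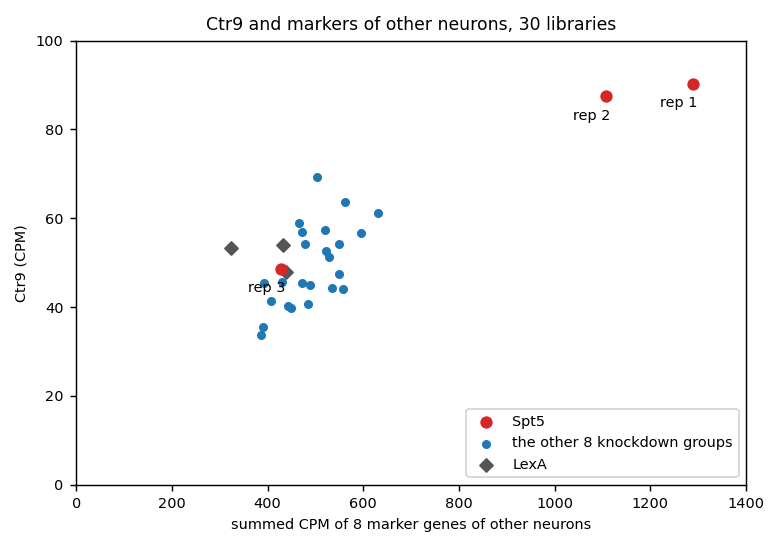
Ctr9 in CPM (vertical axis) against the summed CPM of 8 marker genes of other neurons (horizontal axis) in the 30 libraries; red circles are Spt5, blue circles the other 8 knockdown groups and grey diamonds LexA. Spt5 replicates 1 and 2, at 90.3 and 87.5 CPM of Ctr9, lie away from all other libraries, and replicate 3 lies among them.

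Ctr9 was lowest in Trl, at 35.6, 33.8 and 39.7 CPM, below every LexA library (log2 ratio -0.51, SE 0.19, adjusted p 0.11). Trl was lower than the other 8 knockdowns (-0.55, SE 0.15, adjusted p 0.014), a call lost without Trl replicate 1 or 2. Top1 (44.9, 44.4 and 40.6 CPM) and cnc (47.5, 45.6 and 44.1 CPM) also lay below the LexA libraries without a call (-0.26 and -0.18). Spt6, at 54.2, 63.6 and 69.3 CPM, and Taf1, at 56.9, 59.0 and 54.1 CPM, lay above them (0.27 and 0.13), again without a call. The lowest library of each was only just above the highest LexA library, at 54.0 CPM.

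The 5 genes that lay below every LexA library in Trl were Nelf-A, Cdk9, CycT, CycK and Ctr9. The median log2 ratio of the 9 was -0.42 in Trl, beside 0.21 for all genes tested. In dom the same pair of medians was -0.38 for the 9 and 0.21 for all genes, and in Spt5 -0.22 and 0.05. The remaining 6 comparisons had medians of the 9 between -0.31 in Top1 and 0.13 in Taf1. Against the other 8 knockdowns in place of LexA, 9 of 81 tests were called, against 7.36% of all genes. These were the 4 named above, Nelf-A and spt4 in dom, Ctr9 in Trl, Nelf-E lower in Spt5 (-0.91, SE 0.31, adjusted p 0.043) and Cdk9 higher in Taf1 (0.60, SE 0.16, adjusted p 0.039), a comparison in which 2.67% of all genes were called. The last 2 were lost on leaving out any of 19 and of 20 of the 27 libraries.

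The rest of the pathway was read from a list of 53 other genes, of which 51 had a row and 50 were tested. In dom 2 of the 50 were called higher (4.37% of all genes) and 6 lower (6.0%), with a median of -0.17 beside 0.21 for all genes. The largest change was that of snRNA:7SKa (3R, 7474553 to 7474996, minus strand), the small nuclear RNA that, with Larp7 and Hexim, holds P-TEFb inactive. It read 288, 3736 and 2700 CPM in dom, against 259, 237 and 422 CPM in LexA. The 2 high libraries are above all others of the series, and dom replicate 1 lies inside the LexA range. snRNA:7SKa rose in dom (log2 ratio 2.87, SE 0.54, adjusted p 9.1e-04), with 2.39 to 3.36 on leaving out a library, and was called under every alternative run.

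Eaf, which binds the super elongation complex, fell in dom to 45.4, 73.0 and 64.2 CPM, against 121, 149 and 105 CPM in LexA (log2 ratio -1.04, SE 0.17, adjusted p 2.4e-04). IntS3, a subunit of Integrator, the complex that cleaves nascent RNA, fell to 102, 102 and 103 CPM in dom, against 181, 210 and 200 CPM in LexA (-0.95, SE 0.23, adjusted p 0.0068). Fcp1, the phosphatase of the polymerase tail, fell to 10.8, 17.4 and 13.8 CPM in dom, against 20.2, 28.5 and 22.3 CPM in LexA (-0.76, SE 0.20, adjusted p 0.013). None of these 3 genes' dom libraries overlapped with LexA. The Eaf call held on leaving out any library, that of IntS3 was lost without dom replicate 2 (adjusted p 0.056) or 3 (0.053), and that of Fcp1 without dom replicate 1 (0.053), dom replicate 3 (0.088) or LexA replicate 2 (0.13). Of the other 4 called genes, Ssrp was higher (0.90), and Bre1 (-0.62), TfIIS (-0.93) and Set2 (-0.71, adjusted p 0.046) were lower; these 4 calls were not examined under alternatives.

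In Trl, 1 of the 50 was called higher (0.631% of all genes) and 4 lower (1.91%), with a median of -0.38 beside 0.21 for all genes. Eaf fell to 78.4, 65.8 and 81.7 CPM in Trl, against the LexA values above (-0.73, SE 0.17, adjusted p 0.030), and TfIIS, which rescues stalled polymerase, to 3.40, 6.63 and 9.42 CPM, against 12.5, 17.0 and 11.4 CPM in LexA (-1.07, SE 0.28, adjusted p 0.041). Fcp1 was lower as well (-0.77, SE 0.20, adjusted p 0.041), and so was Rtf1, of the PAF1 complex (-0.66, adjusted p 0.047). Polr2K, a small subunit shared by the RNA polymerases, rose to 11.0, 6.95 and 9.92 CPM in Trl, against 3.07, 3.01 and 4.73 CPM in LexA (1.37, SE 0.35, adjusted p 0.039). Each of these calls, Rtf1 not examined, was lost with the background covariate (adjusted p 0.19 to 0.29) and without Trl replicate 1 or 2 or LexA replicate 1 or 2; without LexA replicate 3 that of Eaf was kept and the other 3 were lost. Those of Eaf, TfIIS and Fcp1 were also lost with no filter (adjusted p 0.058 to 0.079) and in the 6 libraries alone (0.072 to 0.092), those of TfIIS and Fcp1 with RLE scaling (0.065 and 0.058), and that of TfIIS against the other 8 knockdowns (0.056).

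In Spt5, 1 of the 50 was called higher (11.0% of all genes) and 2 lower (5.42%), with a median of -0.09 beside 0.05 for all genes. Larp7, which binds 7SK RNA, rose to 9.85, 9.57 and 6.99 CPM in Spt5, against 4.33, 4.78 and 5.13 CPM in LexA (0.89, SE 0.28, adjusted p 0.025). Eaf (-0.55, SE 0.17, adjusted p 0.026) and Pcf11, a factor of transcript cleavage and termination (-0.69, SE 0.22, adjusted p 0.027), were lower. All 3 calls were lost without Spt5 replicate 1 or 2 (adjusted p 0.12 to 0.20), without LexA replicate 1 or 2, in the 6 libraries alone, and with the other 8 knockdowns or Cdk12 in place of LexA. Without LexA replicate 3 only that of Eaf was kept among the 3. In TH1, where 0.0806% of all genes were called higher, the single called gene of the list was Polr2K, at 13.2, 10.0 and 10.8 CPM, against the LexA values above (1.66, SE 0.35, adjusted p 0.032), lost on leaving out any of its 6 libraries. In Spt6, Cdk12, Taf1, Top1 and cnc none of the 50 was called by edgeR, with 0, 3, 1, 7 and 4 at an unadjusted p under 0.05 in that order, and DESeq2 called 1 in Top1 and 1 in cnc.

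**Figure D5:**
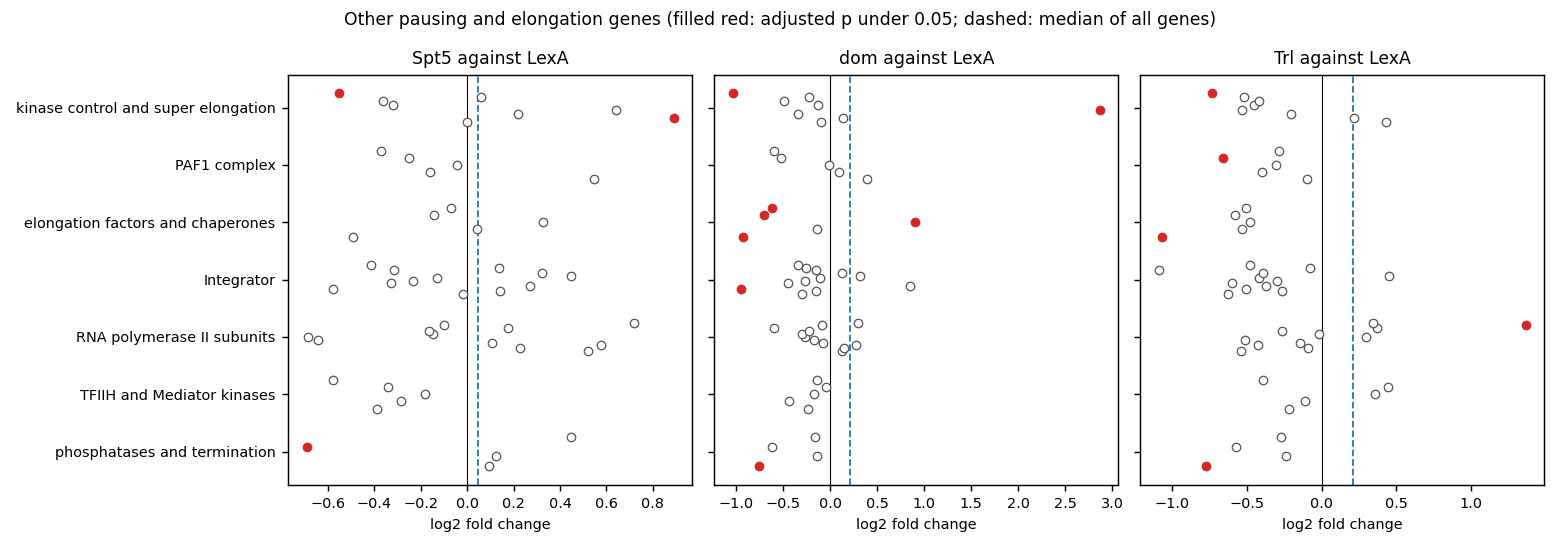
log2 fold change over LexA of the 50 other pausing and elongation genes (circles, by function) in Spt5, dom and Trl, with calls filled in red and the median of all genes dashed; the 3 horizontal axes differ in scale. snRNA:7SKa in dom stands alone at 2.87, and most genes in Trl lie left of the dashed line at 0.21.

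Over the 30 libraries, the 36 pairs among the 9 genes had Pearson's r of log2 CPM between -0.20 and 0.79, with a median of 0.19. CycT and lilli were the closest pair (0.79), and within groups, after removal of the group means, their r was 0.65. As a description, the genes most like each member were, for lilli, cac (r = 0.96), the calcium channel of the presynaptic terminal, and Syt7 (0.94), for CycT, Jarid2 (0.95) and east (0.95), and for Nelf-A, pns (0.92) and X11L (0.91). Cdk9 was closest to lola (0.90) and fwd (0.88), and Ctr9 to Cyp6w1 (0.89) and sprt (0.89). The highest r of the other 4 members was lower, with milt for spt4 (0.71), hrm for CycK (0.70), Spg7 for Nelf-E (0.66) and RtcB for Nelf-B (0.64). These libraries share their processing and the shifts in cell type markers and in reads outside features given above.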

How the data were processed

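The authors deposited whole-number counts of reads per gene, 1 file per library. The submitters' processing notes name Trimmomatic 0.39 (a read trimmer), HISAT2 (an aligner), HTSeq (a read counter) and the genome build BDGP6. The strand setting, counted feature and annotation release are not given in the sources used here. The 5 summary rows, which held 51.8% to 74.5% of all reads, and up to 4 rows that name no gene of the annotation stayed out of library sizes and tests. Symbols and positions come from Ensembl release 115 for BDGP6, and 17710 of 17807 rows had a symbol.

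The deposited counts entered edgeR 4.0.16 (R 4.3.3). Genes passed its filter by expression (minimum count 10, minimum total 15; 14888 genes), library sizes were adjusted by TMM, and 1 fit over all 30 libraries estimated the 10 group means. The quasi-likelihood F test, which is two-sided, compared every knockdown with LexA and, as a test of any difference, all 10 groups. P-values were Benjamini-Hochberg adjusted over all tested genes of a comparison, and a call is an adjusted p under 0.05. Adjusted p-values come from it wherever no other tool is named. The SE is the size of the log2 ratio over the root of F. CPM was computed from TMM library sizes, log2 CPM with a prior count of 2. Counting error only is covered by depth, since reads carry no molecular identifiers. The labels call the replicates biological and say nothing of separate cultures or pools of flies, so p-values measure only the spread between these libraries. The fit was tested on simulated data. These drew the libraries of a group from the same means, scaled by library size, so that test does not bear on outlying libraries.

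Alternatives were DESeq2 1.42.0, relative log expression scaling (RLE), no filter, a replicate block, a covariate (log2 of reads outside features per gene count), the 6 libraries alone, other reference groups and leaving out each library. Repeats for the other pathway genes, and leaving out libraries against the other 8 knockdowns, were added after seeing the data. All 9 members are named; of the 53 other pathway genes, those called are named up to 4 a comparison by smallest adjusted p, and Ssrp, Bre1, TfIIS and Set2 in dom and Rtf1 in Trl were named beyond that after their values were seen. The genes most like a member are the 2 with the highest r among tested genes whose mean log2 CPM reaches 3 and whose symbol is not a bare number or a noncoding RNA. The members and lists were chosen with earlier results of these data known. Sequences of the members were not used here.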

Additional observations from a re-analysis of the deposited data

How the results depend on the processing

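lilli lower in dom was called under every alternative run. The alternatives that lost the other 3 calls of members stand beside them above, with 2 exceptions. The replicate block is given below. Leaving out libraries of groups outside the comparison also lost calls in many fits. Each fit without a library reran the filter and the scaling. Without Top1 replicate 1, for example, 15440 genes were tested, against 14888, and CycT in dom was at -0.56, against -0.66. A call lost in this way need not have rested on the library left out. Nelf-A in Trl was lost, for example, without Spt5 replicate 1 (adjusted p 0.069) or TH1 replicate 1 (0.060). Ctr9 in Spt5 was lost, for example, without cnc replicate 3 (0.060) or Cdk12 replicate 2 (0.061). CycT in dom was kept in each such fit. DESeq2 called 9 of the 81 tests of members and the other 8 knockdowns as reference 9, and leaving out a library gave 1 to 5. Members called over the 10 groups were 3 in the 8 groups that share a layout and 3 to 5 on leaving out a library. They were 6 without LexA and with the replicate block. With RLE scaling, no filter, the background covariate or DESeq2 they were 7, with Cdk9 added. Nelf-E in TH1 turned to -0.23 against the other 8 knockdowns and to -0.11 without LexA replicate 1, Nelf-B in TH1 to 0.24 and 0.25 without TH1 replicate 2 and LexA replicate 3, and spt4 in Spt5 to 0.11 and 0.15 without Spt5 replicate 3 and LexA replicate 1. Leaving out a library of the comparison gave -0.11 to 0.38, -0.26 to 0.25 and -0.18 to 0.15 for these 3 in that order.

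Over all genes, DESeq2 called 2422 in dom, 58 in Spt6, 82 in TH1, 119 in Cdk12, 81 in Taf1, 204 in Top1, 1008 in Trl and 127 in cnc, and 7085 over the 10 groups. The 6 libraries alone gave 2 in Spt5, 2565 in dom, 73 in TH1, 106 in Cdk12, 113 in Taf1, 204 in Top1, 1184 in Trl and 20 in cnc. The background covariate gave 33 in Spt6, 52 in TH1, 50 in Cdk12, 37 in Taf1, 107 in Top1, 65 in Trl and 77 in cnc. The other 8 knockdowns as reference gave 88 in Spt6, 59 in Cdk12, 397 in Taf1 and 4654 in Trl, and Cdk12 as reference 1003 in Spt5. In Trl, RLE scaling gave 218 genes, no filter 140 and the replicate block 760, against 379; RLE called 120 higher and 98 lower there, against 94 and 285. The cause was not tested. Leaving out a library gave 244 to 3726 genes in Spt5, 648 to 1215 in dom, 9 to 21 in Spt6, 19 to 23 in TH1, 9 to 29 in Cdk12, 13 to 23 in Taf1, 29 to 46 in Top1, 34 to 1190 in Trl, 20 to 38 in cnc and 2669 to 5663 over the 10 groups.

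The replicate numbers did not pair the libraries: in no comparison were all 3 same-number correlations of deviations over 0.1. With the number as a replicate block, Ctr9 in Spt5 was not called (0.55, adjusted p 0.053) and the other 3 calls of members were.

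Nelf-E, spt4 and Nelf-B rest on 12, 21 and 18 reads in their thinnest libraries.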

Other observations

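CG43078, which overlaps Nelf-E on the other strand, read 516, 711 and 725 CPM in dom, against 1501, 1726 and 1190 CPM in LexA (log2 ratio -1.18, SE 0.22, adjusted p 9.1e-04). Nelf-E was at 0.17 (SE 0.40, adjusted p 0.87) in the same comparison, so the 2 overlapping genes were not called together.

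Polr2K, called in TH1 and Trl, read 7.03, 11.2 and 8.48 CPM in Top1 and 8.21, 13.0 and 6.64 CPM in cnc, against 3.07, 3.01 and 4.73 CPM in LexA. In Spt5, dom and Spt6 it read between 2.43 and 4.77 CPM.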
